A study of Homo sapiens with 45 samples.

Results

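The SR splicing factors are a family of RNA-binding proteins named for a domain rich in serine and arginine. The members described here were taken by gene symbol: SRSF1, SRSF2, SRSF3, SRSF4, SRSF5, SRSF6, SRSF7, SRSF9, SRSF10 and SRSF11. No cut on a measured value was used, though earlier results of these data were known when they were chosen. All 10 were among the 28278 gene names of the main count table and among the 27135 names of the tables of 2 further controls, and all 10 passed the filter on low counts. The other SRSF genes in the main table were SRSF8, which was tested and is given beside the members, and SRSF12, which did not pass the filter.

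SR proteins bind short enhancer sequences in exons through RNA-recognition motifs and recruit U1 and U2 components to the neighbouring splice sites. Heterogeneous nuclear ribonucleoproteins such as HNRNPK bind silencers as well as enhancers and often act against SR proteins at the same exon. Many SR genes limit their own output: the protein promotes inclusion of a poison exon in its own transcript, and that transcript is destroyed by nonsense-mediated decay. Counts per gene, the only RNA values used here, do not separate the productive transcript from the one with the poison exon.

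The cells were HCT116, an established human colon cancer line, and every group carried this same background. RNA was sequenced from 4 libraries with a nontargeting siRNA (siNTC5) and 4 with HNRNPK siRNA (siHNRNPK). A further 2 had a nontargeting siRNA, in libraries named Scramble-p7 and called Scramble here. All were at 25 nM for 72 hours. In siNTC5 and siHNRNPK, the TruSeq stranded mRNA kit was used for replicates 1 and 2 and the Ligation kit for the rest, from RNA purified on a Maxwell instrument. The Scramble libraries were made with the TruSeq kit from RNA purified with an RNeasy kit, and were counted in tables of their own. The labels give the siNTC5 and Scramble libraries the same treatment, so whether their siRNA was the same is not known. Depletion was transient in a single cancer line, and the labels do not say whether replicates were separate cultures, so p-values measure the spread between these libraries only. Domains bound by lamin B1 or marked by H3K9me2, H3K9me3 or H3K27me3 were given as 7 lists, 1 per antibody and siRNA, with no replicate values. H3K9me2 had a list for the control siRNA only.

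Total counts ran from 12107280 to 23633851 in the 8 libraries of the knockdown comparison and were 59209169 and 55007171 in the Scramble libraries. HNRNPK itself stood at 934, 967, 822 and 814 CPM (the share of a library's counts after TMM scaling, on the usual CPM scale) in siNTC5 replicates 1 to 4. In siHNRNPK replicates 1 to 4 it stood at 250.3, 223, 157 and 164 CPM, so every library matched its label (edgeR quasi-likelihood log2 fold change -2.17, standard error 0.061, adjusted p = 7.29e-15). Of 8 colon epithelial markers, 6 had more than 10 counts in every library and VIL1 and LGALS4 were near 0, with LGALS4 between 0.0 and 0.0598 CPM in the 8 libraries. The summed level of the 8 markers was 2731 to 3155 CPM without scaling in siNTC5, 4389 to 5269 CPM in siHNRNPK and 3489 to 3598 CPM in Scramble. Most of the higher sum in siHNRNPK was KRT8 and KRT18, which rose (edgeR log2 fold changes 0.98 and 1.41), while KRT19 fell (-1.27, edgeR adjusted p = 1.36e-12) and CDX2 did not pass (12.1 and 12.0 CPM). The summed level of 10 markers of other cell types was 46.9 to 75.5, 78.1 to 124 and 28.2 to 30.7 CPM in the same groups, nearly all of it COL1A1 in the 8 libraries (44.1 to 119 CPM), and CD3E was at 0 in every library. These marker lists moved with the groups and their part in the results below was not tested; in bulk RNA, fewer cells of a type and less RNA per cell cannot be told apart.

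The genes lie on 7 chromosomes in RefSeq on GRCh38.p14: SRSF4, SRSF10 and SRSF11 on chromosome 1, SRSF1 and SRSF2 on chromosome 17, and the others on chromosomes 2, 6, 12, 14 and 20. The RefSeq promoter table (GRCh38.p14) held an entry for 9 members, all but SRSF2, and 250 bases before the annotated start were read. HNRNPK is known to bind C-rich single strands of the CT element, first described upstream of MYC, and CCCTCCC, the core of that element, was searched on both strands. The 9 members with an entry have 11 promoters in the table, and 5 of these held it (SRSF1, SRSF4, SRSF5, SRSF6 and SRSF10), beside 24.7% of the 35114 promoters searched. Printed here are the 3 members with siHNRNPK wholly above siNTC5 in this scaling, SRSF1, SRSF10 and SRSF11, the member inside called histone domains, SRSF6, and the only member that fell, SRSF9. Each sequence runs 5′ to 3′ on the strand of the gene up to the base before the start, at chr17:58007247-58007496 and chr1:23980328-23980577 (both minus strand), chr1:70205446-70205695 (plus), chr20:43457646-43457895 (plus) and chr12:120469749-120469998 (minus). Capitals mark the core, which reads GGGAGGG on this strand in the 3 that hold it.
SRSF1: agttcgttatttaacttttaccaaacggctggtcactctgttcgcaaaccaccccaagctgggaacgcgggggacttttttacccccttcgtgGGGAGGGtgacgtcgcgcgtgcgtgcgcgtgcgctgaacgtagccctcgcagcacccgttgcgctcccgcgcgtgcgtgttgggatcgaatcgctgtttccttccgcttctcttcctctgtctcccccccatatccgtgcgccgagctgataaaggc
SRSF10: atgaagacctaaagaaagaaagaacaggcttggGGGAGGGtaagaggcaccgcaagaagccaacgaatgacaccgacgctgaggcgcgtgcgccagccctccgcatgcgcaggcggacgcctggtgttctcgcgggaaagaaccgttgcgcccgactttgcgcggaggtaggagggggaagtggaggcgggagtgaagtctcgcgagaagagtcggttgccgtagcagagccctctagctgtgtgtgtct
SRSF11: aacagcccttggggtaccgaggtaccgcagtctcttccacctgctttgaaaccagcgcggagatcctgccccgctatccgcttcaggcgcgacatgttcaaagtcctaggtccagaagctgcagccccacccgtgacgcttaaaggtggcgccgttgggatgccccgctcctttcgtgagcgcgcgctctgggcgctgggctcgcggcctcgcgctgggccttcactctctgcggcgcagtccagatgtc
SRSF6: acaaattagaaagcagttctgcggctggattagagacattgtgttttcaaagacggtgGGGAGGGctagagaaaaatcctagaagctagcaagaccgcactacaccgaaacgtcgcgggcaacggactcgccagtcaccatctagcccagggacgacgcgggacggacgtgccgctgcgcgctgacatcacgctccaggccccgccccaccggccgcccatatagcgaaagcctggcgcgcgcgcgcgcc
SRSF9: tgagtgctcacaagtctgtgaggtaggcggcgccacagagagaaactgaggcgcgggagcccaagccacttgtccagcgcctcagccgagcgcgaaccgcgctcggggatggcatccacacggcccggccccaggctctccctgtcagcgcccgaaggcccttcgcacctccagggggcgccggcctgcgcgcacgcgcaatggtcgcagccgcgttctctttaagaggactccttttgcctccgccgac
The core began 157 bases before the start in SRSF1, 217 in SRSF10 and 192 in SRSF6, and these letters are not in the window shown for SRSF9, nor in either of the 2 windows of SRSF11, of which the first is shown. The CCAAT box (CCAAT) was in 1 member, SRSF3, against 32.0% of promoters, and the TATA box (TATAAA) was in SRSF3, SRSF7 and SRSF11, against 10.7%. In SRSF11 it was in the window that is not shown, where it reads TTTATA on the strand of the gene. The GC box (GGGCGG) was in SRSF4, SRSF6 and SRSF7, against 42.6%. Each of the 4 motifs was searched on both strands, matches of different motifs may share some letters, and a match is a description of the letters only.

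Most SR splicing factors differed by small amounts between siHNRNPK and siNTC5, upward more often than downward. In edgeR, with the kit as a model term and an adjusted p under 0.05 as the call, 6 of 10 members rose (SRSF1, SRSF3, SRSF5, SRSF6, SRSF10 and SRSF11), 1 fell (SRSF9), and SRSF2, SRSF4 and SRSF7 did not pass. Of all 13933 genes tested, 71.5% were called, 35.5% higher and 36.1% lower, so 7 of 10 is near the share over all genes. The median log2 fold change was 0.16 over the members and -0.004 over all tested genes. The median size without regard to sign was 0.20 over the members and 0.41 over all tested genes, and 56.9% of tested genes moved by more than the member that moved most. Members had between 1302 and 18079 counts in each of the 8 libraries and standard errors of 0.039 to 0.052, against a median of 0.081 over all genes, so small shifts passed the test.

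**Figure D1:**
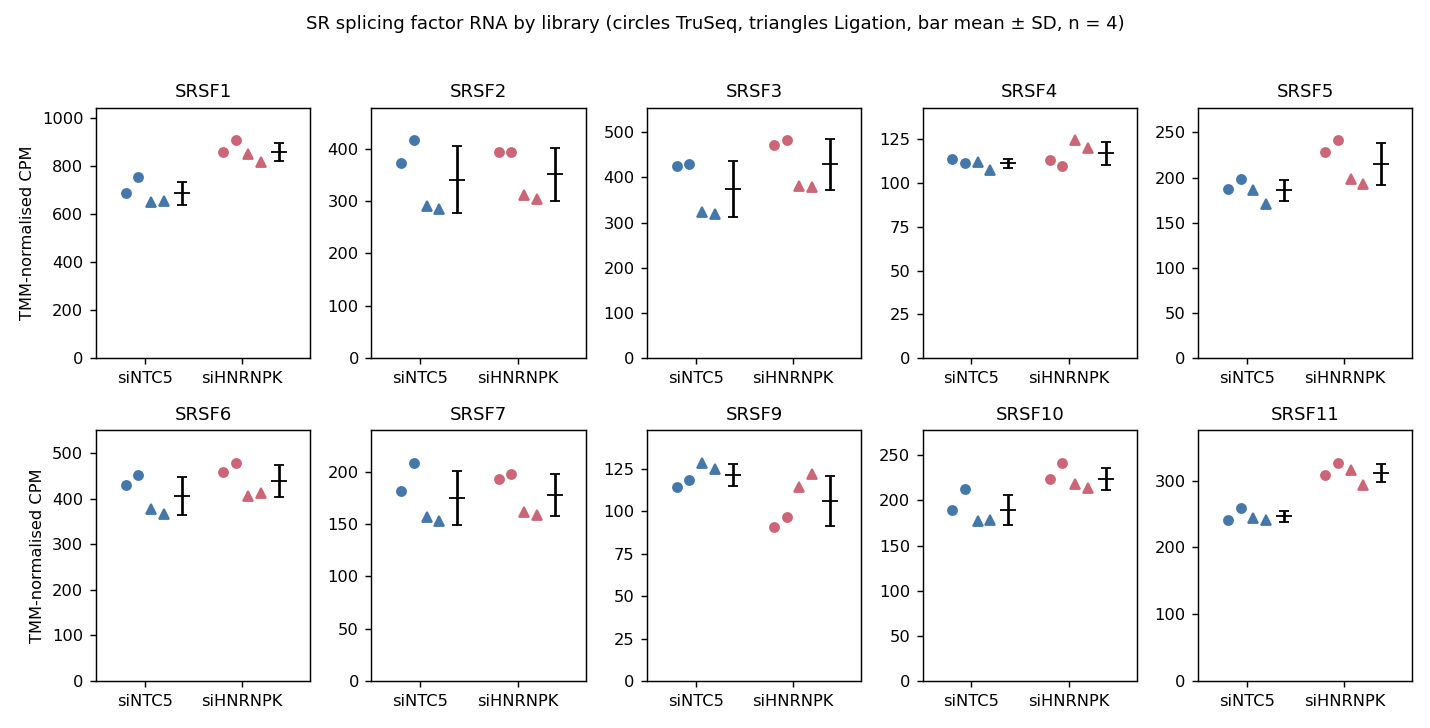
Each panel plots the TMM-normalised CPM of 1 SR splicing factor on the vertical axis, from 0, in the 4 siNTC5 and 4 siHNRNPK libraries, with circles for TruSeq, triangles for Ligation and bars for the mean ± SD. The siHNRNPK points lie wholly above the siNTC5 points in the panels of SRSF1, SRSF10 and SRSF11, and in the panels of SRSF2, SRSF3, SRSF6 and SRSF7 the circles lie above the triangles whatever the siRNA.

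SRSF1 and SRSF9 are close relatives that share a canonical and a pseudo RNA-recognition motif, and they moved in opposite directions. SRSF1, the founding member, acts in constitutive and alternative splicing and is a known oncoprotein. It stood at 686, 755, 651 and 654 CPM in siNTC5 replicates 1 to 4 and at 859, 907, 849 and 816 CPM in siHNRNPK replicates 1 to 4. Every siHNRNPK library was above every siNTC5 library. The mean rose from 686 ± 48.5 to 858 ± 37.7 CPM (SD, n = 4), 25.0% higher (edgeR log2 fold change 0.32, standard error 0.042, adjusted p = 1.53e-06). SRSF9 stood at 115, 118, 129 and 125 CPM in siNTC5 and at 91.0, 96.7, 114 and 122 CPM in siHNRNPK. It was lower in siHNRNPK within each kit, while the Ligation siHNRNPK libraries overlapped the TruSeq controls. The mean fell from 122 ± 6.42 to 106 ± 14.7 CPM (SD, n = 4; edgeR log2 fold change -0.21, standard error 0.052, adjusted p = 0.0015). In the Ligation libraries alone the fall was -0.11 on the log2 scale and did not pass in edgeR (adjusted p = 0.0916). Over the alternatives, in edgeR or DESeq2, its adjusted p ran from 1.21e-05 to 0.0916. SRSF9 overlaps the 3′ end of GATC, on the other strand, by 2078 bp. GATC had 853 to 1448 counts in the 8 libraries and rose (edgeR log2 fold change 0.18, adjusted p = 0.00579), opposite in sign to SRSF9, and the strand counted is not given in the sources used here.

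SRSF2, SRSF3 and SRSF7 carry a single RNA-recognition motif. SRSF3 and SRSF7 also act as adaptors that hand spliced mRNA to the export receptor NXF1. SRSF3 stood at 425, 431, 323 and 319 CPM in siNTC5 and at 472, 482, 381 and 379.6 CPM in siHNRNPK. The kits lay so far apart that the groups overlapped over 8 libraries, but siHNRNPK was above siNTC5 within each kit. The rise was 14.9% (edgeR log2 fold change 0.20, standard error 0.039, adjusted p = 0.000137), and without the kit term it was 0.196 with a standard error of 0.119 and did not pass (edgeR adjusted p = 0.174, with 1.45e-06 to 0.174 over the alternatives). SRSF7 stood at 182, 209, 157 and 154 CPM in siNTC5 and at 193, 198, 162 and 159 CPM in siHNRNPK. Its groups overlapped, and the log2 fold change was 0.02 with a 95% interval of -0.07 to 0.12 (edgeR adjusted p = 0.668). Its sign turned under 3 alternatives, among them leaving out siNTC5 replicate 1 (-0.016).

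SRSF2, also known as SC35, marks nuclear speckles and is mutated in myeloid cancers. It stood at 372, 416, 290.1 and 285 CPM in siNTC5 and at 394, 394, 311 and 305 CPM in siHNRNPK. The spread between kits was larger than the difference between siRNAs. The log2 fold change was 0.05 with a 95% interval of -0.04 to 0.14 (edgeR adjusted p = 0.331), and it passed without siNTC5 replicate 2 (0.09, edgeR adjusted p = 0.0444, with 0.0444 to 0.94 over the alternatives). A rise the size of that of SRSF1 lies outside the intervals of SRSF2 and SRSF7.

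SRSF4, SRSF5 and SRSF6 form a subfamily with a pair of RNA-recognition motifs and long serine and arginine domains. SRSF5 stood at 187, 199, 186 and 171 CPM in siNTC5 and at 228, 241, 199 and 192 CPM in siHNRNPK. It rose by 15.6% (edgeR log2 fold change 0.21, standard error 0.047, adjusted p = 0.000647), with siHNRNPK above siNTC5 within each kit and overlap between the Ligation siHNRNPK and TruSeq siNTC5 libraries. The rise was 0.29 on the log2 scale in the TruSeq libraries alone and 0.13 in the Ligation libraries alone. SRSF6 stood at 430.4, 453, 377 and 366 CPM in siNTC5 and at 459.7, 479, 407 and 412 CPM in siHNRNPK. Its rise of 8.28% was the smallest among the members that passed (edgeR log2 fold change 0.11, standard error 0.039, adjusted p = 0.0142). It passed in 12 of 20 alternatives, with adjusted p in edgeR or DESeq2 from 0.00217 to 0.243. It was lost without siNTC5 replicate 4 (edgeR adjusted p = 0.0514), without siHNRNPK replicate 2 (0.0597) and without siHNRNPK replicate 4 (0.0554).

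SRSF4 stood at 114, 112, 112 and 107 CPM in siNTC5 and at 113, 109.7, 124 and 120.2 CPM in siHNRNPK. The TruSeq libraries of the 2 groups overlapped and the Ligation libraries did not. The log2 fold change was 0.07 with a 95% interval of -0.03 to 0.17 (edgeR adjusted p = 0.194). It was -0.006 in the TruSeq libraries alone and 0.15 in the Ligation libraries alone, where it passed (edgeR adjusted p = 0.0243, with 0.0243 to 0.941 over the alternatives). SRSF4 overlaps MECR on the same strand by 14205 bp, and MECR, with 160 to 735 counts in the 8 libraries, fell (edgeR log2 fold change -0.87, adjusted p = 1.03e-07).

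SRSF10 and SRSF11 stand apart from the classical SR proteins: SRSF10 represses splicing when dephosphorylated, as in heat shock, and SRSF11 binds U2AF2 and other SR proteins. SRSF10 stood at 189, 213, 177 and 178 CPM in siNTC5 and at 224, 242, 218 and 214 CPM in siHNRNPK. Its lowest siHNRNPK library lay just above its highest siNTC5 library on this scaling (213.6 against 212.8 CPM), and just below it on the scaling of all 10 libraries (212.0 against 212.9 CPM) and on library totals alone (206.8 against 215.6 CPM). The rise was 18.4% (edgeR log2 fold change 0.24, standard error 0.046, adjusted p = 0.000118). SRSF11 stood at 241, 259, 245 and 241 CPM in siNTC5 and at 308, 326, 316 and 294 CPM in siHNRNPK. No library of one group reached the other, and the rise of 26.3% was the largest among the members (edgeR log2 fold change 0.34, standard error 0.043, adjusted p = 1.07e-06). Both passed in 20 of 20 alternatives.

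Over the 8 libraries the groups did not overlap for 3 members, SRSF1, SRSF10 and SRSF11, all higher in siHNRNPK, against 28.5% of tested genes that were higher without overlap and 56.5% without overlap in either direction. For SRSF10 this held on the 8-library TMM scaling alone among the 3 scalings compared, a comparison added after the values were seen, and for SRSF1 and SRSF11 on all 3. A two-sided exact permutation test of 4 against 4 libraries cannot go below p = 0.0286, which any separated member reaches by construction, and it leaves out the kit, so it adds nothing to the separation. Within both kits, siHNRNPK was above siNTC5 for SRSF1, SRSF3, SRSF5, SRSF6, SRSF10 and SRSF11, against 34.1% of tested genes. It was below within both kits for SRSF9, against 35.0%.

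The summed level of the 10 members was 2940, 3163, 2646 and 2600 CPM in siNTC5 and 3342, 3475, 3083 and 3013 CPM in siHNRNPK. Within each kit both siHNRNPK libraries were above both siNTC5 libraries, and over all 8 the ranges overlapped. SRSF1 made up 23.3% to 25.2% of the sum in siNTC5 and 25.7% to 27.5% in siHNRNPK. Gene lengths were not used here, so the members' levels are not ranked against each other and each share is compared only with the same gene's share in other libraries.

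SRSF8, a close relative of SRSF2 outside the members and named after its values were seen, moved more than any of them. It stood at 42.2, 44.6, 33.2 and 34.3 CPM in siNTC5 and at 62.4, 64.4, 56.5 and 56.3 CPM in siHNRNPK. The groups did not overlap (edgeR log2 fold change 0.64, standard error 0.06, adjusted p = 2.23e-08). Reads shared between SRSF2 and SRSF8 could be split differently by other counting rules, which the sources used here do not give.

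The library kit was asked about next because several members differed as far between kits as between siRNAs. This comparison was added after the values were seen. The kit went with the replicate number, so it cannot be told apart from anything else that differed between replicates 1 and 2 and the rest. With siRNA in the model, 7 of 10 members were lower in the Ligation libraries than in the TruSeq libraries and 1, SRSF9, was higher, against 28.5% of tested genes called, 13.2% lower and 15.2% higher. SRSF2 was lower by most (edgeR log2 difference -0.41, standard error 0.044, adjusted p = 6.45e-06), followed by SRSF3 (-0.37) and SRSF7 (-0.31). For SRSF2, SRSF3, SRSF6 and SRSF7 all 4 Ligation libraries were below all 4 TruSeq libraries, against 4.09% of tested genes. SRSF9 was higher by 0.22 (edgeR standard error 0.051, adjusted p = 0.00322). SRSF4 (0.05) and SRSF11 (-0.05) did not pass. The calls of SRSF1 (-0.11) and SRSF10 (-0.14) were lost when any 1 of siNTC5 replicates 2, 3 and 4 or siHNRNPK replicates 2 and 4 was left out, with log2 differences of -0.141 to -0.08 and -0.177 to -0.1 over the 8 omissions.

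Whether the response to HNRNPK siRNA differed between kits was tested by an interaction term. None of the 10 members passed in edgeR or in DESeq2, against 0.129% of tested genes in edgeR (18 of 13933). At an unadjusted p under 0.05 there were 1639 such genes (11.8%) and 1 member, SRSF9, whose fall was smaller in the Ligation libraries (log2 difference 0.21, edgeR adjusted p = 0.344). HNRNPK itself fell further in the Ligation libraries (log2 difference -0.34, edgeR standard error 0.081, unadjusted p = 0.000571), without passing after adjustment (adjusted p = 0.1). Any part of this in the values of the members was not tested. A p that misses the threshold does not show that the kits gave the same response. The count over all genes rose to 364 without siNTC5 replicate 1 and 598 without siNTC5 replicate 2, and fell to between 6 and 9 without each of the other 6 libraries, with no member called in any of them.

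**Figure D2:**
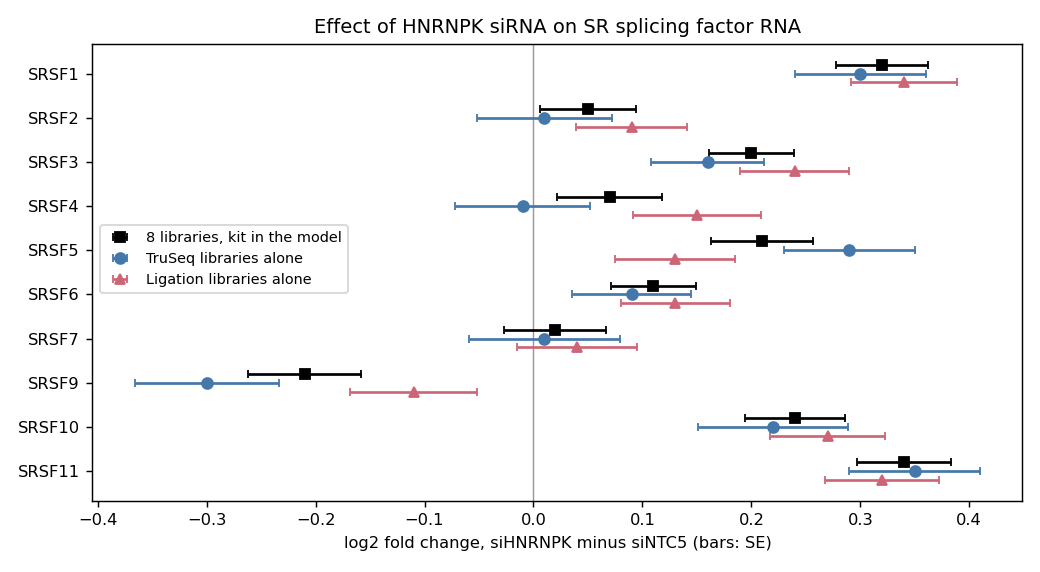
Points are log2 fold changes of the 10 SR splicing factors (siHNRNPK minus siNTC5, horizontal axis) with standard errors, for the 8 libraries together (squares), the TruSeq libraries alone (circles) and the Ligation libraries alone (triangles). Squares for SRSF1 (0.32) and SRSF11 (0.34) lie farthest to the right, SRSF9 (-0.21) is alone on the left, and the circle and triangle lie farthest apart for SRSF9, SRSF5 and SRSF4.

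The Scramble libraries, compared here as a second set of nontargeting controls, held less RNA of nearly every member than siNTC5. In a fit of all 10 RNA libraries on the 25527 shared names, 9 of 10 members were lower in Scramble than in siNTC5 and SRSF9 did not pass, against 69.3% of 14642 tested genes called, 31.8% lower and 37.5% higher. SRSF1 stood at 296 and 292 CPM in the 2 Scramble libraries, beside 683, 756, 654 and 658 CPM in siNTC5 on the same scaling. Both lay far below the lowest siNTC5 library, a 2.43-fold lower level (edgeR log2 fold change -1.28, standard error 0.055, adjusted p = 3.48e-13). SRSF2 stood at 167 CPM in both Scramble libraries, beside 371, 417, 292 and 287 CPM in siNTC5. It was 2.33-fold lower (edgeR log2 fold change -1.22, standard error 0.056, adjusted p = 9.78e-13). These differences are larger than any between siHNRNPK and siNTC5 among the members. Large shifts were common in this contrast, and 19.5% of tested genes differed by more than SRSF1. The median size without regard to sign was 0.48 over the members and 0.48 over all tested genes.

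The other members that were lower in Scramble differed less. SRSF5 stood at 118 and 113 CPM (edgeR log2 fold change -0.78), SRSF11 at 158 and 176 CPM (-0.59) and SRSF10 at 138 and 141 CPM (-0.51). SRSF7 stood at 141 and 143 CPM (-0.45), SRSF3 at 313 and 309 CPM (-0.44) and SRSF4 at 80.8 and 84.4 CPM (-0.41). Without the kit term the value of SRSF3 was -0.27 and did not pass (edgeR adjusted p = 0.114, the highest over its alternatives). All of these, and SRSF1 and SRSF2, were below every siNTC5 library, whichever kit it came from, against 31.8% of tested genes. SRSF6 stood at 373 and 376 CPM, within the range of the Ligation siNTC5 libraries (379 and 368 CPM) and below the TruSeq ones (429 and 453 CPM). Its log2 fold change of -0.23 rested on the kit term (edgeR adjusted p = 0.000441, and 0.284 without that term, the highest over the alternatives). SRSF9 stood at 111 and 118 CPM, overlapping siNTC5 at 114, 118, 129 and 126 CPM (log2 fold change 0.02, standard error 0.062, edgeR adjusted p = 0.78). Its sign turned under 5 alternatives and without Scramble replicate 2, and without scaling beyond library totals it was called lower (-0.215, edgeR adjusted p = 0.00391). SRSF8, outside the members, stood at 43.69 and 41.84 CPM in Scramble, beside 42.02, 44.63, 33.42 and 34.55 CPM in siNTC5. The SRSF8 difference did not pass (edgeR log2 fold change 0.02, standard error 0.072, adjusted p = 0.807).

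The split over all genes depended on the scaling. With TMM 5495 genes were higher and 4651 lower in Scramble, with upper-quartile scaling 4380 and 5770, and with library totals alone 3626 and 6700. The median over all genes moved from 0.039 to -0.096 and -0.196 on the log2 scale. Relative to those medians SRSF1 and SRSF2 were still lower, since SRSF1 lay between -1.52 and -1.23 and SRSF2 between -1.46 and -1.03 over all alternatives.

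The composition of the family differed as well, which does not rest on scaling between libraries. SRSF1 made up 15.6% and 15.2% of the summed CPM of the 10 members in the Scramble libraries, against at least 23.3% in every siNTC5 library. SRSF6 made up 19.7% and 19.6%, against at most 14.6%. The summed level was 1896 and 1919 CPM in Scramble, on the scaling of all 10 libraries. The sums given above for siNTC5 and siHNRNPK are on the scaling of the 8 libraries.

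Against Scramble, the siHNRNPK libraries were higher in 9 of 10 members and lower in SRSF9, against 81.2% of tested genes called, 38.8% higher and 42.4% lower. The log2 fold change of SRSF1 was 1.60 (edgeR standard error 0.056, adjusted p = 1.21e-14), that of SRSF2 was 1.26 and that of SRSF5 was 0.98. SRSF11 followed with 0.91, SRSF10 with 0.75, SRSF3 with 0.63, SRSF4 and SRSF7 with 0.47 each and SRSF6 with 0.33. SRSF9 was lower by -0.24 (edgeR standard error 0.064, adjusted p = 0.0025), and did not pass under upper-quartile scaling, library totals alone or no kit term (edgeR adjusted p up to 0.631). For the 9 higher members every siHNRNPK library was above both Scramble libraries, against 38.9% of tested genes. This comparison shares the siHNRNPK libraries with the first and the Scramble libraries with the second, so the 3 are not independent. Scramble differs from the other libraries in RNA purification, count table and depth, and its notes list hg19 beside hg38, so these cannot be told apart from the siRNA.

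**Figure D3:**
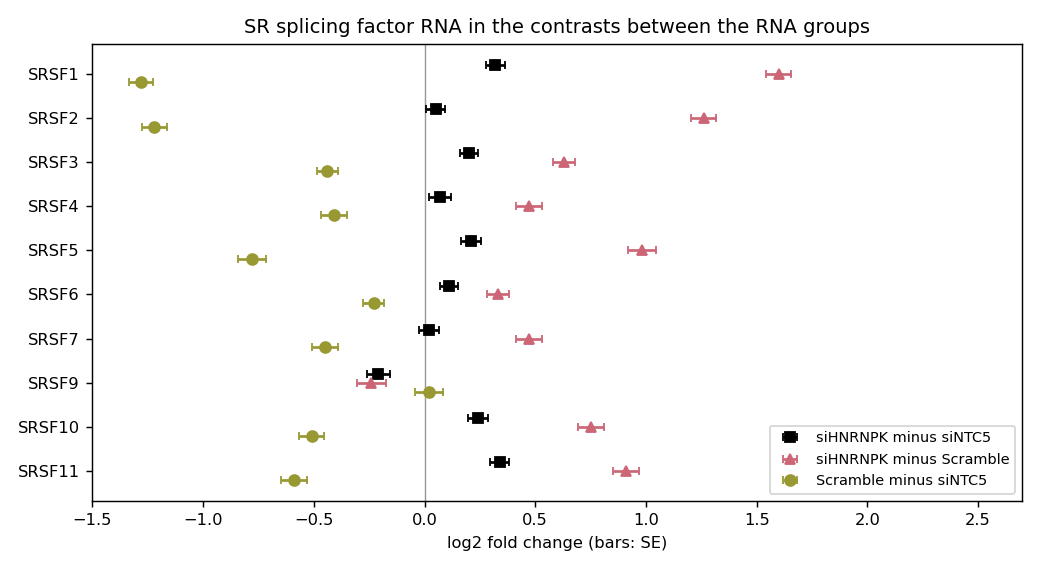
Points are log2 fold changes of each SR splicing factor with standard errors for siHNRNPK minus siNTC5 (squares), siHNRNPK minus Scramble (triangles) and Scramble minus siNTC5 (circles). For SRSF2 the square lies at 0.05 while the triangle lies at 1.26 and the circle at -1.22, and for SRSF9 the circle lies at 0.02.

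With Scramble added to the siNTC5 controls, 4 members were called in the knockdown comparison in place of 7, and over all genes 6965 of 13460 in place of 9968 of 13933. SRSF1 (log2 fold change 0.615, edgeR adjusted p = 0.095, the highest over its alternatives) and SRSF5 (0.411, edgeR adjusted p = 0.0817, the highest over its alternatives) were among those lost. Their fold changes were larger than with siNTC5 alone, and the standard error of SRSF1 was 0.282 in place of 0.042.

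SR proteins depend on phosphorylation by SRPK and CLK kinases, and TNPO3 carries them into the nucleus. Of 12 listed genes for SR kinases and RNA or protein transport, 11 were tested and 9 rose, 1 fell (CLK3, named after its values were seen) and 1 did not pass, with a median log2 fold change of 0.40. Over all 13933 tested genes, 35.5% rose and 36.1% fell, with a median of -0.004. CLK2 did not pass the filter. CLK1, a kinase that phosphorylates SR proteins in the nucleus, was the 1 gene of this list with a log2 change of at least 1. It rose from 51.2 ± 1.21 to 115 ± 7.38 CPM (SD, n = 4; edgeR log2 fold change 1.16, standard error 0.051, adjusted p = 6.5e-13), and it was lower in Scramble than in siNTC5 (-1.0, edgeR adjusted p = 3.05e-10).

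Of 26 other SR and SR-related genes, 24 were tested, 18 rose and 3 fell, with a median of 0.28, against 35.5% higher, 36.1% lower and a median of -0.004 over all genes. Those that fell were LUC7L2, TRA2A and SRRM3, the last 2 named after their values were seen. LUC7L2, a relative of a yeast U1 component, had the lowest siNTC5 level among the tested genes of this list. It fell from 5.62 ± 1.84 to 2.35 ± 0.668 CPM (SD, n = 4; edgeR log2 fold change -1.25, standard error 0.174, adjusted p = 3.54e-06). Of 18 genes of the early spliceosome, 17 were tested, 13 rose and 1, SNRPA, fell, with a median of 0.33. Of 10 genes of nonsense-mediated decay, 7 rose and UPF3A, SMG6 and SMG9 fell, with a median of 0.30. Of 11 other hnRNP genes, 10 were tested, 6 rose and HNRNPA1, HNRNPD and HNRNPF fell, with a median of 0.15. SNRPA and the genes that fell in the last 2 lists were named after their values were seen. In Scramble minus siNTC5, 15 of 24 tested other SR and SR-related genes were lower and 5 higher. For SR kinases and transport these were 8 and 3 of 12, and for the early spliceosome 9 and 4 of 17. For nonsense-mediated decay they were 6 and 1 of 10, and for other hnRNP genes 5 and 3 of 11. Over all tested genes 31.8% were lower and 37.5% higher.

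For each member the tested gene outside the family with the most similar log2 CPM over the 8 libraries was looked up. These were SMIM7 for SRSF1 (Pearson r 0.995), GSR for SRSF2 (0.989), GTF2A1 for both SRSF3 (0.996) and SRSF6 (0.991), and RRS1 for SRSF4 (0.946). The others were EIF4ENIF1 for SRSF5 (0.97), FARSB for SRSF7 (0.988), NPHP4 for SRSF9 (0.993), SNORA73B for SRSF10 (0.99) and FAM133B for SRSF11 (0.995). The 8 points share siRNA and kit. Over 0.95 were 767 genes for SRSF11 and 634 for SRSF1, and none for SRSF4.

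The chromatin lists placed 9 of the 10 genes outside every called domain. None of the 10 genes touched a lamin B1 domain in either list or an H3K9me2 domain in the control list, where 4.06%, 3.46% (siHNRNPK) and 1.60% of 13481 positioned tested genes did. The distance to the nearest control lamin B1 domain ran from 82.9 kb (SRSF6) to 9059.3 kb (SRSF10), with a median of 1087.8 kb. SRSF6 was the exception for histone marks. Its gene body, chr20:43457896-43464243, lay wholly (100.0%) inside an H3K27me3 domain of the control list, chr20:43150001-43465000, and 33.2% of it lay in the siHNRNPK domain, chr20:43150001-43460000. These 2 domains began at the same base and spanned 315 and 310 kb, so they differed only at the end that lies near SRSF6. The lower share of the gene body thus rests on where that end was placed, in lists without replicates. Their deposited scores, in a unit not given in the sources used here, were 1.64 and 1.67. All 10 members lay outside the H3K9me3 domains of the control list, and SRSF6 lay wholly inside one of the siHNRNPK list, chr20:43295001-43520000. That domain had a score of 0.51, above 12.0% of the scores in its list, whose lowest was 0.45, and the nearest H3K9me3 domain of the control list lay 277.9 kb away. Of the positioned tested genes, 14.9% touched an H3K27me3 domain in control and 12.9% in siHNRNPK, and 4.35% and 9.56% touched an H3K9me3 domain. SRSF6 RNA was at 366 CPM or more in all 8 libraries.

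**Figure D4:**
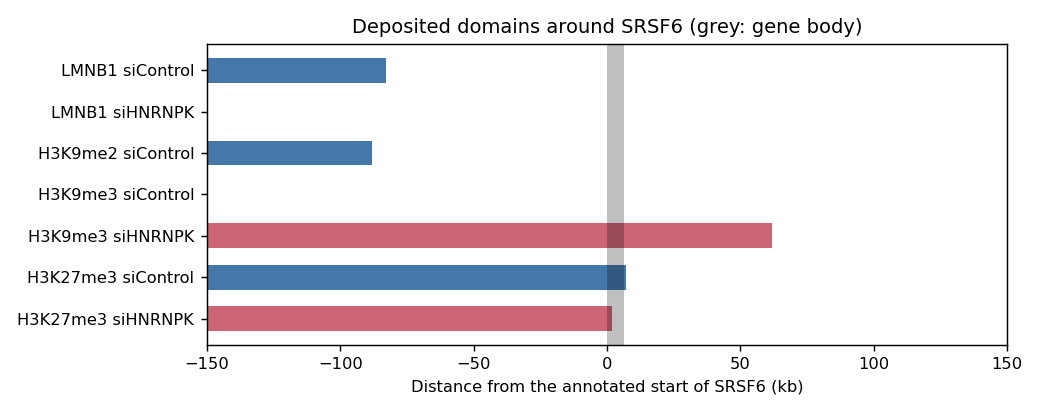
Bars are the deposited domains within 150 kb of SRSF6, by distance from its annotated start in kb (horizontal axis), 1 row per domain list, with the gene body in grey. The control H3K27me3 bar spans the gene, the siHNRNPK H3K27me3 bar ends inside it, and an H3K9me3 bar covers it in the siHNRNPK row alone.

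Neighbouring transcripts overlap further members as well, and RefSeq lists 13 pseudogenes of members, of which 0 were in either count table. SRSF2 overlaps MFSD11 by 778 bp. MFSD11 had 202 to 479 counts, against at least 3690 for SRSF2, and did not pass (edgeR log2 fold change -0.14, adjusted p = 0.116). MIR636, inside SRSF2, had 0 counts in every library. SRSF5 overlaps the antisense LOC100289511 by 572 bp, which had 4 to 30 counts, against at least 2333 for SRSF5. SRSF1 overlaps LOC101929185, which the count tables used here do not name.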

How the data were processed

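RNA libraries were read as the counts per gene symbol that the authors deposited, whole numbers made with STAR 2.7.1a and featureCounts on hg38 per the submitters' processing notes, which add Subread 2.0.6 for the 8 main libraries and list hg19 as well for Scramble. The annotation, the strand counted and the handling of reads that map to several places are not given in the sources used here. Domains were read from the 7 lists with the score that the authors deposited for each domain. Bowtie2 2.5.1 and deepTools 3.1.3 on hg38 are named in the submitters' processing notes, and the domain caller, the use of input and any pooling of replicates are not given in the sources used here.

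Counts were filtered with filterByExpr on the siRNA groups, scaled by TMM and tested in edgeR 4.0.16 (limma 3.58.1, R 4.3.3) by the quasi-likelihood test with library kit in the model. P values were adjusted over all tested genes by Benjamini-Hochberg, and an adjusted p under 0.05 was a call. The Scramble contrasts used 1 fit of 10 libraries with a shared spread. CPM is the count divided by the TMM-scaled library size, on the usual CPM scale. Gene positions, strands and promoter sequences came from RefSeq tables of GRCh38.p14. Other steps used Python 3.11.15, with figures from matplotlib 3.10.9, exact tests from scipy 1.17.1 and tables from pandas 2.3.3.

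The members, the gene lists and the tests were chosen with earlier results of these data known. Named genes are the 10 members and HNRNPK, listed genes with an adjusted p under 0.05 and a log2 fold change of 1 or more in size, the gene most like each member, and annotated pseudogenes or genes that overlap a member. SRSF8 and the few genes of a list that moved against the rest were added after their values were seen.

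Alternatives were DESeq2 size factors, upper-quartile scaling, other filters, the Wald test of DESeq2 1.42.0, robust dispersion, other model terms, the Scramble libraries among the controls, fits within a kit and the omission of single libraries. Same-numbered siNTC5 and siHNRNPK libraries deviated together from their group means, with r across genes of 0.1004, 0.4246, 0.3365 and 0.2653 for numbers 1 to 4, and the number also marks the kit. A fit with the replicate number as a block was therefore run as well. Counts of 13590 genes were also simulated on the library totals of the knockdown comparison, with the same spread for every gene and few genes changed. Of these, 89 of 100 genes changed by 0.5 and 99 of 100 changed by 1 on the log2 scale were called, with 11 unchanged genes called. In the simulated Scramble comparison of 13408 genes these were 87, 98 and 7. Shifts as small as those of the members in the knockdown comparison (at most 0.34 in size) were not simulated. The simulation therefore does not measure how well such shifts are called.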

Additional observations from a re-analysis of the deposited data

Results flagged for a closer look

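SRSF6 lay wholly (100.0% of the gene body) inside an H3K9me3 domain of the siHNRNPK list and outside every H3K9me3 domain of the control list (0.0%). It was flagged because the signal lies in data outside the RNA comparisons and is above the control value. The lists have no replicates, the domain's deposited score of 0.51 exceeded 12.0% of the scores in its list, and the share of positioned tested genes touching an H3K9me3 domain was 4.35% in control and 9.56% in siHNRNPK.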

How the results depend on the processing

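Of 10 members, 7 were called in the knockdown comparison, 4 without the kit term, 4 with Scramble libraries added to the controls and 0 when a log2 fold change of 1 or more in size was also required. Over all genes these settings called 9968, 8719, 6965 and 2195. The other settings gave 6 to 8, among them 6 to 8 when each library was left out. With the replicate block in place of kit, 7 members and 9872 genes were called, and no member's call changed. SRSF4 turned to -0.006 in the TruSeq libraries alone. SRSF7 turned to -0.017 without scaling beyond library totals, an alternative chosen after seeing the data, to -0.013 without a filter, and ranged from -0.016 to 0.069 over the omitted libraries. Interaction estimates that crossed 0 over the omitted libraries ran from -0.033 to 0.108 for SRSF1, -0.004 to 0.16 for SRSF2, -0.001 to 0.082 for SRSF6, -0.075 to 0.126 for SRSF7, -0.039 to 0.133 for SRSF10 and -0.089 to 0.038 for SRSF11. No member was called for the interaction under any setting, while the count over all genes went from 18 to 239 without a filter, 65 in DESeq2 and 44 with robust dispersion. In Scramble minus siNTC5, SRSF9 turned to -0.115 with upper-quartile scaling, -0.215 without scaling, -0.027 with a mean of at least 50 counts, -0.028 in the TruSeq libraries alone and -0.093 without the kit term, and ranged from -0.014 to 0.066 over the omitted libraries. Members called there numbered 9, with 7 to 10 over the settings, and 9 or 10 were called in siHNRNPK against Scramble. The kit comparison called 6 to 8. The cause of these shifts was not tested. The lowest member count in the 8 libraries was 1302.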
